A study of Mus musculus with 6 samples.

Results

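Kinesins are motor proteins that use ATP to walk along microtubules, and this account covers their messenger RNA in mouse dorsal root ganglia (DRG), which hold the cell bodies of sensory neurons. The members were all genes whose symbol is Kif followed by a number and at most a letter and a further number, and 38 such genes with 233 annotated transcripts were found among 54242 gene symbols and 140992 transcripts. They were sorted by their known role into 15 transport kinesins, 12 mitotic kinesins, 6 kinesins of the cilium or of hedgehog signalling and 5 others.

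All libraries came from L4-6 ganglia of male C57bl/6 mice aged 8-10 weeks. Fasted mice had followed intermittent fasting for 10 days (3 libraries), and fed mice had eaten ad libitum (3 libraries). The labels of both groups give killing after 24 hours but not what those hours follow, so the feeding state at collection is not known. The ganglia of both groups were dissociated with Dispase II, Collagenase Type II and papain, and neurons were enriched on a gradient of 15% BSA. The series title concerns leptin signalling and axon regeneration, but no animal here is labelled as injured. No label says whether a library is 1 animal or a pool, so a p-value here reflects library-to-library spread that could be partly technical. Values are TPM, a share of all transcripts that is corrected for transcript length and lets levels of different genes be compared.

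Most proteins and organelles of a sensory axon are made in the cell body and carried outward by kinesins. Kinesin-1 motors (Kif5a, Kif5b and Kif5c) pair with light chains and carry vesicles, mitochondria and neurofilaments. Kinesin-3 motors such as Kif1a and Kif1b carry synaptic vesicle precursors and dense core vesicles, and kinesin-2 motors (Kif3a with Kif3b or Kif3c, and Kif17) carry other membrane cargo and serve cilia. Mitotic kinesins build the spindle, move chromosomes and complete cytokinesis, and adult sensory neurons no longer divide. The summed level of the 15 transport kinesins was 2453 ± 87.5 TPM in fasted libraries and 2352 ± 74.2 TPM in fed libraries (SD, n = 3 each), and that of the 12 mitotic kinesins was 9.88 ± 0.83 TPM in fasted libraries and 12.5 ± 1.76 TPM in fed libraries. In bulk RNA, fewer cells of a type and less RNA per cell cannot be told apart.

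The motor domain is shared by both classes, and the stretch coding for its ATP-binding P-loop is shown for 8 members to make that likeness visible. Each line gives coding sequence from GENCODE M21 transcripts (GRCm38), 5′ to 3′ on the coding strand, with the 24 bases of the P-loop in capitals and 18 bases on either side in lower case. The first 5 lines are transport kinesins and the last 3 are mitotic kinesins.
Kif5a: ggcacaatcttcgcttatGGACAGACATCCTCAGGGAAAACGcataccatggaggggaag
Kif5c: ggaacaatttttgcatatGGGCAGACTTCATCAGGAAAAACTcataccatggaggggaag
Kif1b: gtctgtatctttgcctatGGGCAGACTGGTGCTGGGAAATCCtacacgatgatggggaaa
Kif3c: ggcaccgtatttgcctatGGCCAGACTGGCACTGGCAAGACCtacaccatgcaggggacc
Kif21a: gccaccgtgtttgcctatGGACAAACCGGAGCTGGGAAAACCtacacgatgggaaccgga
Kif11: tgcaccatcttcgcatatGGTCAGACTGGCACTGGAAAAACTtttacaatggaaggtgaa
Kif22: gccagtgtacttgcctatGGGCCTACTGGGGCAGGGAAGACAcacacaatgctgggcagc
Kif23: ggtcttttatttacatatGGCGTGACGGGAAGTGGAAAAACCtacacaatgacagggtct
In Kif5a the capitals lie at chr10:127248042-127248065 on the minus strand, in coding exon sequence at codons 86 to 93. In Kif3c they lie at chr12:3366269-3366292 on the plus strand, and in Kif11 at chr19:37384736-37384759 on the plus strand. A P-loop pattern was found in 37 of the 38 genes. Of the 24 bases, the other 14 transport kinesins shared a median of 15 with Kif5a (13 to 19), and the 11 mitotic kinesins searched shared a median of 15 (12 to 17). Every stretch matches a general protein pattern, so part of the sharing was fixed by that choice. A stricter form of the pattern was tried first, and some members, Kif5a and Kif22 among them, matched only the general form. The ranges of the classes overlapped, and Kif5c shared the most of the members shown, 19 bases.

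Promoters were compared next, since the members of the mitotic class are transcribed with the cell cycle in dividing cells. Promoter sequences from RefSeq (GRCm38.p6, 250 bases before to 50 after the annotated start) were found for 11 transport and 11 mitotic kinesins, with the first listed start used for each gene. They are shown for a pair of transport and a pair of mitotic kinesins whose levels are given further on. Capitals mark matches on either strand to TTTGAA, the core of the cell cycle genes homology region, and to CCAAT, the NF-Y box. The complement reads TTCAAA and ATTGG.
Kif1a: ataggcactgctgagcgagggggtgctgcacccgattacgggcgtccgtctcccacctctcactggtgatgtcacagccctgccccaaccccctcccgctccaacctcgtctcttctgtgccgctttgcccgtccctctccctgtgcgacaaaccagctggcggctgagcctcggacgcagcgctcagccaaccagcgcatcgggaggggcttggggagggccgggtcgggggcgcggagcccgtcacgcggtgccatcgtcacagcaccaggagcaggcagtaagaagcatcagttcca
Kif1b: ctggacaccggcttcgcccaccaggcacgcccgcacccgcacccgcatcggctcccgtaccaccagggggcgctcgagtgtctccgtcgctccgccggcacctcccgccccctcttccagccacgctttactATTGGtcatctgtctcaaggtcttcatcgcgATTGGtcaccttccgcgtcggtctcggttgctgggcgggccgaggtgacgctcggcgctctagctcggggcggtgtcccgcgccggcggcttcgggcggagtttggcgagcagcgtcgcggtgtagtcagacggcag
Kif11: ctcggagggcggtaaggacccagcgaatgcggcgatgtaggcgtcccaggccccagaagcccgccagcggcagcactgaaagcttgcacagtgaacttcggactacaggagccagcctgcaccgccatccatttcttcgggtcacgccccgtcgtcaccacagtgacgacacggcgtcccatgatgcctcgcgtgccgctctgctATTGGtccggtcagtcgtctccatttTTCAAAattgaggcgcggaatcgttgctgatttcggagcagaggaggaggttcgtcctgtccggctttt
Kif22: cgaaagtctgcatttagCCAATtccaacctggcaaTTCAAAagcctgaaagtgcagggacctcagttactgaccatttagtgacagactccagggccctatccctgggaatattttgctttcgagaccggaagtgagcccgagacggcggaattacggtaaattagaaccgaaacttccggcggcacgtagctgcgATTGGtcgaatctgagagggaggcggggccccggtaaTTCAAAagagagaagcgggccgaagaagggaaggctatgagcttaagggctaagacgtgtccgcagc
The windows are chr1:93101825-93102124 on the minus strand for Kif1a, chr4:149307684-149307983 on the minus strand for Kif1b, chr19:37376132-37376431 on the plus strand for Kif11 and chr7:127042371-127042670 on the minus strand for Kif22. TTTGAA was found in 0 of 11 transport promoters and in 9 of 11 mitotic promoters (81.8%), against 18.1% of all 27025 promoters of the same length. CCAAT was found in 3 of 11 transport promoters (27.3%) and in 7 of 11 mitotic promoters (63.6%), against 37.9% of all. The windows of Kif14 and Kif2c, both counted with TTTGAA, lay well inside the gene and not at its start in GENCODE. That of Kif17, which holds no TTTGAA, did so as well. The motifs overlapped in 0 kinesin promoters. GC content was higher in the transport promoters (median 69.3%, 58.0% to 86.7%) than in the mitotic promoters (median 59.7%, 43.7% to 65.0%), and its part in the counts was not tested. A match is a run of letters and was not measured as a binding site here.

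No kinesin gene passed the adjusted threshold between fasted and fed ganglia. Of the 38 genes, 26 had a mean of at least 1 TPM and were tested (15 transport, 4 mitotic, 4 ciliary and 3 others), and 0 of 26 passed an adjusted p of 0.05 in limma (Benjamini-Hochberg over 15097 genes), where 1 gene of the whole table passed (0.00662%). At an unadjusted p of 0.05, 1 kinesin was higher in fasted ganglia (Kif3c), where 6.72% of all tested genes were higher at that level. At the same level 2 kinesins were lower (Kif22 and Kif23), where 3.22% of all tested genes were lower. All 3 fasted libraries lay above all 3 fed libraries for 5 kinesins (Kif5a, Kif3b, Kif3c, Kif16b and Kif2a), as for 12.7% of all tested genes, and below them for 1 (Kif23), as for 5.07%. The median log2 fold change was 0.048 over the 15 transport kinesins and -0.20 over the 4 tested mitotic kinesins, against 0.031 over all tested genes. With no filter the mitotic median was -0.043, against 0.0094 over all genes in that setting. Fold changes here are fasted minus fed on the log2(TPM + 1) scale, which understates the change of low genes.

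**Figure D1:**
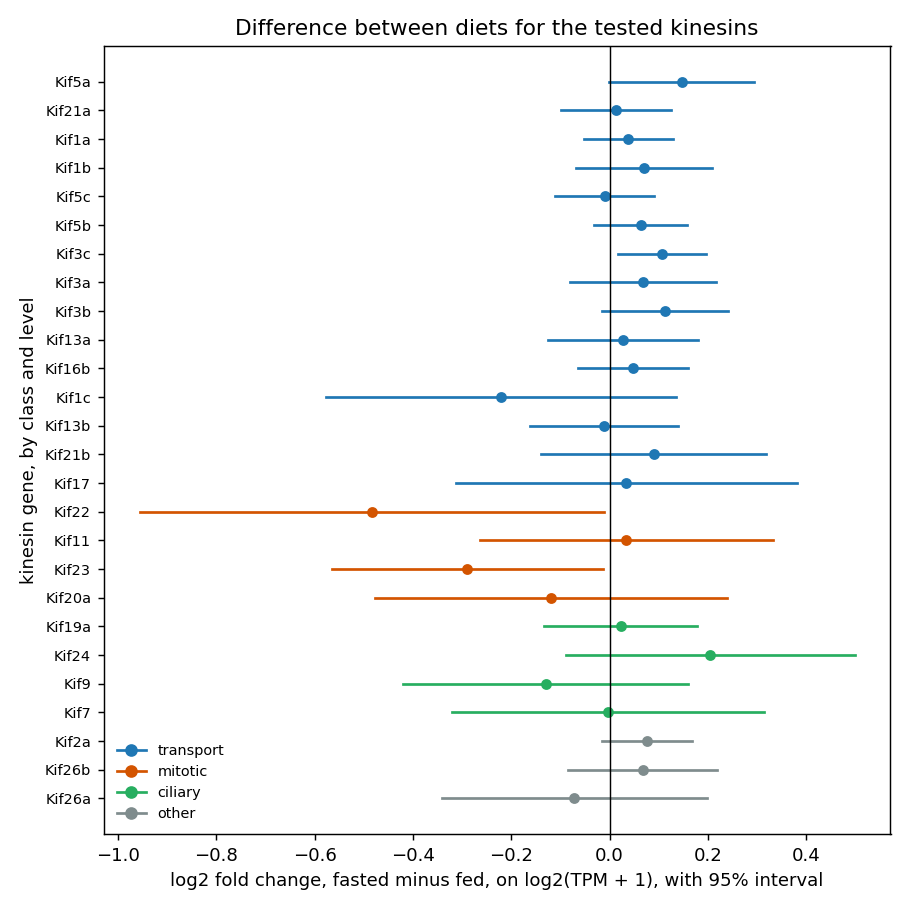
Log2 fold change (fasted minus fed, log2(TPM + 1) scale, horizontal axis) of each of the 26 tested kinesins, grouped by role, with 95% confidence intervals from limma on 3 fasted and 3 fed libraries. The transport kinesins lie near 0, from -0.22 for Kif1c to 0.15 for Kif5a. The intervals of Kif22 (-0.96 to -0.012) and Kif23 (-0.56 to -0.014) lie below 0, with only their upper ends close to it. That of Kif3c (0.017 to 0.20) lies above 0, and none passed the adjusted threshold.

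Among the kinesin-1 heavy chains, Kif5a, the neuron-specific form, was the most abundant kinesin of the table. The Kif5a gene lies at chr10:127225696-127263348 on the minus strand. Its level was 451.1, 460.0 and 474.5 TPM in fasted libraries 1 to 3, against 425.8, 379.3 and 449.1 TPM in fed libraries 1 to 3. The groups did not overlap, although fed library 3 came close to fasted library 1, and fed library 2 lay well below the rest. The mean was 461.9 ± 11.8 TPM in fasted libraries and 418.1 ± 35.5 TPM in fed libraries (SD, n = 3 each), a log2 fold change of 0.15 (SE 0.063) with a 95% interval of -0.00073 to 0.29. It did not pass in limma (adjusted p = 0.50), and without fed library 2 the log2 fold change was 0.078.

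Kif5c, another neuronal heavy chain, had 252.0, 246.7 and 267.2 TPM in fasted libraries and 250.4, 256.1 and 264.6 TPM in fed libraries. Kif5b, the heavy chain that most cell types express, had 240.9, 249.0 and 256.9 TPM in fasted libraries and 236.9, 231.6 and 246.1 TPM in fed libraries. The groups overlapped for both, with log2 fold changes of -0.010 (SE 0.043) for Kif5c and 0.063 (SE 0.040) for Kif5b. Kif5a thus made up 47.8 ± 0.31% of kinesin-1 heavy chain TPM in fasted libraries and 45.7 ± 1.71% in fed libraries (SD, n = 3 each). The shares did not overlap, and the lowest, 43.7%, was that of fed library 2. That library held the most muscle RNA, with 489.96 TPM of Ckm, muscle creatine kinase, where the others held 9.07 to 52.2 TPM. The part of that RNA in the Kif5a values was not tested.

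**Figure D2:**
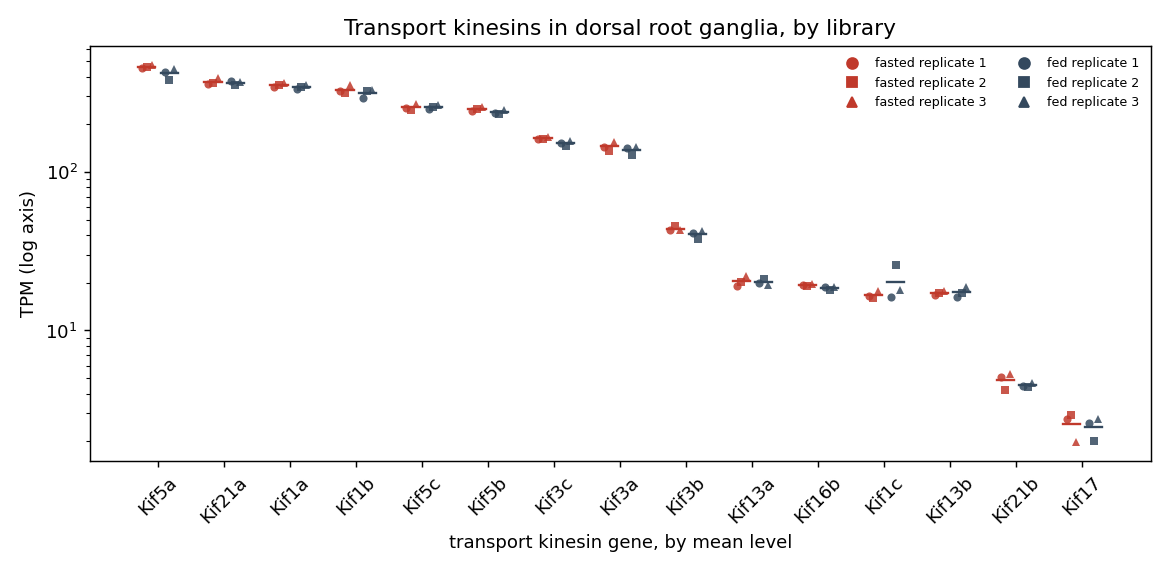
Level in TPM (logarithmic axis) of the 15 transport kinesins in each of the 3 fasted and 3 fed libraries, 1 point per library with a line at each group mean, ordered by mean level. Fasted and fed points lie close together for most genes, from Kif5a at 379.3 to 474.5 TPM down to Kif17 at 1.99 to 2.93 TPM.

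Kinesin-2 held the kinesin with the smallest p. Kif3c, the partner of Kif3a that is richest in neurons, had 162.4, 161.4 and 165.7 TPM in fasted libraries, against 153.1, 145.7 and 156.0 TPM in fed libraries. Every fasted library was above every fed library, and the mean was 163.2 ± 2.26 TPM in fasted libraries and 151.6 ± 5.33 TPM in fed libraries (SD, n = 3 each). The log2 fold change was 0.11 (SE 0.038) with a 95% interval of 0.017 to 0.20, and it did not pass in limma (unadjusted p = 0.026, adjusted p = 0.48). The unadjusted limma p was 0.058 over protein-coding transcripts alone and 0.068 after quantile scaling. After scaling to the sum of 10 neuron markers, the log2 fold change of Kif3c was 0.018 (limma unadjusted p = 0.66). The gene lies at chr12:3365132-3406494 on the plus strand.

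Kif3b, the more widely expressed partner of Kif3a, had 43.2, 45.4 and 42.9 TPM in fasted libraries and 41.5, 37.7 and 42.4 TPM in fed libraries. The groups lay close but did not overlap, and the log2 fold change was 0.11 (SE 0.055, limma adjusted p = 0.52), or 0.063 without fed library 2. Kif3a, the subunit common to both heterodimers, had 144.5, 135.1 and 154.9 TPM in fasted libraries and 142.4, 128.6 and 143.4 TPM in fed libraries, and its groups overlapped. The ratio of Kif3c to Kif3b was 3.72 ± 0.16 in fasted libraries and 3.74 ± 0.10 in fed libraries (SD, n = 3 each), and the ratios overlapped. Kif17, a homodimeric kinesin-2 of dendrites and cilia, had 2.75, 2.93 and 1.99 TPM in fasted libraries and 2.62, 2.02 and 2.75 TPM in fed libraries. Its groups overlapped, and it was the lowest transport kinesin in every library when all transcripts were summed.

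The kinesin-3 motors divided into a high pair and 4 genes at lower level. Kif1a, the main motor of synaptic vesicle precursors, had 343.6, 353.9 and 363.1 TPM in fasted libraries and 335.9, 342.5 and 354.7 TPM in fed libraries. Kif1b, whose isoforms carry mitochondria or vesicle precursors, had 323.8, 314.1 and 351.3 TPM in fasted libraries and 292.7, 322.6 and 326.6 TPM in fed libraries. The groups overlapped for both, with log2 fold changes of 0.038 (SE 0.039) for Kif1a and 0.071 (SE 0.059) for Kif1b. Leaving out 1 library gave 0.018 to 0.059 for Kif1a and 0.021 to 0.10 for Kif1b.

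The other kinesin-3 genes were far lower. Kif13a, a motor of endosomal cargo, had 19.2, 20.3 and 22.2 TPM in fasted libraries and 20.0, 21.01 and 19.4 TPM in fed libraries. Kif16b, a motor of early endosomes, had 19.3, 19.0 and 19.6 TPM in fasted libraries and 18.9, 18.1 and 18.9 TPM in fed libraries. Kif16b groups did not overlap, yet its log2 fold change was only 0.048 (SE 0.048, limma adjusted p = 0.71), and Kif13a groups overlapped. Kif13b, a motor of membrane cargo, had 16.7, 17.2 and 17.8 TPM in fasted libraries and 16.3, 17.2 and 18.8 TPM in fed libraries, with a log2 fold change of -0.012.

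Kif1c, a kinesin-3 of dense core vesicles and integrins, had 16.5, 16.1 and 17.7 TPM in fasted libraries and 16.3, 25.9 and 18.1 TPM in fed libraries. Its negative log2 fold change of -0.22 (SE 0.15, limma adjusted p = 0.60) came with 1 high library, the muscle-rich fed library 2. Without that library the log2 fold change was -0.031.

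Kif21a, a kinesin-4 that moves along axons and restrains microtubule growth, was the next most abundant kinesin after Kif5a, at 356.4, 361.6 and 392.3 TPM in fasted libraries and 377.2, 354.6 and 367.2 TPM in fed libraries. The groups overlapped, with a log2 fold change of 0.014 (SE 0.048). Its relative Kif21b averaged 4.89 ± 0.59 TPM in fasted libraries and 4.52 ± 0.12 TPM in fed libraries (SD, n = 3 each), a log2 fold change of 0.090. Over protein-coding transcripts alone Kif21b averaged 1.42 ± 0.37 TPM in fasted libraries and 1.14 ± 0.27 TPM in fed libraries, below Kif17 at 2.53 ± 0.52 TPM in fasted libraries and 2.42 ± 0.40 TPM in fed libraries, since most Kif21b TPM was in a transcript annotated for nonsense-mediated decay.

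The order of levels among transport kinesins held from library to library. Kif5a stood at rank 324 of the 15097 tested genes by mean level and Kif21a at 412, followed by Kif1a at 451, Kif1b at 507, Kif5c at 692 and Kif5b at 728. Neighbours in the order Kif5a, Kif21a, Kif1a, Kif1b, Kif5c, Kif5b, Kif3c, Kif3a, Kif3b kept their places in 6 of 6 libraries, except that Kif5c was above Kif5b in 5 of 6. Kif13a, Kif16b, Kif1c and Kif13b lay within the spread of each other, and Kif1c was above Kif13b in only 2 of 6. Of the 15 transport kinesins, 12 had a log2 fold change above 0, as did 62.5% of all tested genes. After scaling to the sum of 10 neuron markers this count was 4 of 15, with 28.1% of all tested genes above 0, so the direction of the class turned with the scaling. Transport kinesins summed to 13.5 ± 0.41% of the neuron marker sum in fasted libraries and 13.8 ± 0.62% in fed libraries (SD, n = 3 each), and these overlapped.

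The mitotic kinesins were far lower in level. Of the 4 tested ones, 3 had a log2 fold change below 0, as did 5659 of all 15097 tested genes, and none passed the threshold. Of those 3, Kif20a had a fasted mean under 1 TPM. It reached the mean needed for testing only through its fed values, so its sign gives no support for a difference. Kif22, a chromosome-arm motor, had 4.37, 3.02 and 2.61 TPM in fasted libraries, against 3.73, 6.39 and 5.10 TPM in fed libraries. The groups overlapped at fasted library 1 and fed library 1, and fed library 2 was highest. The mean was 3.34 ± 0.92 TPM in fasted libraries and 5.08 ± 1.33 TPM in fed libraries (SD, n = 3 each), with a log2 fold change of -0.48 (SE 0.20) and limma p-values of 0.046 unadjusted and 0.50 adjusted.

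Kif23, a motor of the central spindle in cytokinesis, had 1.21, 1.38 and 1.22 TPM in fasted libraries, against 1.91, 1.74 and 1.68 TPM in fed libraries. Every fasted library was below every fed library, with a log2 fold change of -0.29 (SE 0.12) and limma p-values of 0.042 unadjusted and 0.50 adjusted. Kif11, the motor that pushes spindle poles apart, had 1.602, 1.39 and 1.81 TPM in fasted libraries and 1.46, 1.73 and 1.43 TPM in fed libraries. Its groups overlapped, with a log2 fold change of 0.034 (SE 0.13). Kif20a, a cytokinesis motor, averaged 0.97 ± 0.20 TPM in fasted libraries and 1.14 ± 0.22 TPM in fed libraries (SD, n = 3 each).

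**Figure D3:**
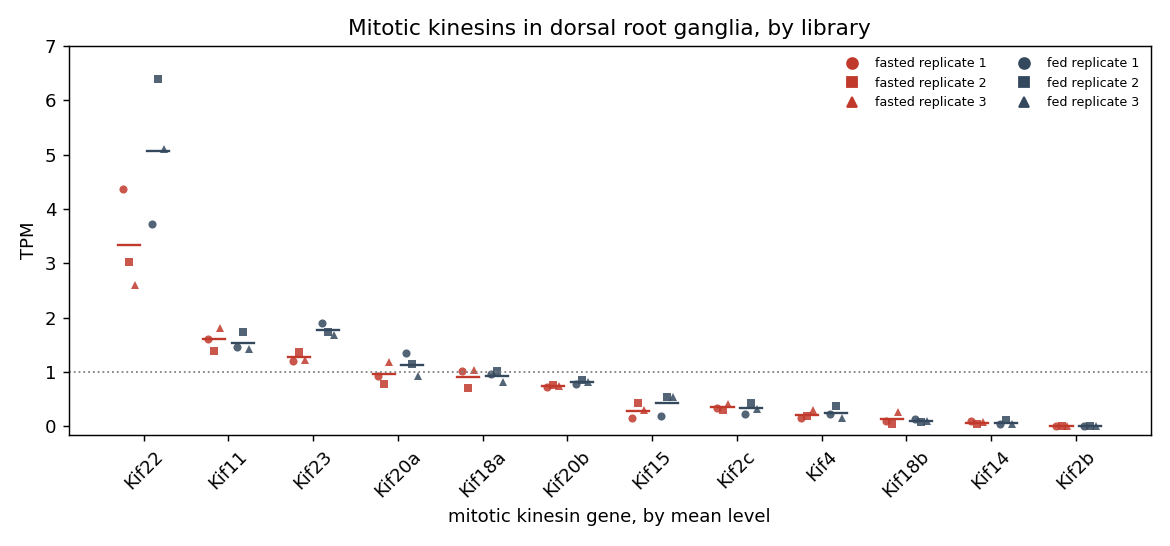
Level in TPM of the 12 mitotic kinesins in each of the 3 fasted and 3 fed libraries, 1 point per library, with a line at each group mean and a dotted line at 1 TPM. Kif22 reaches 6.39 TPM in fed library 2, Kif23 is the tested gene whose fasted points all lie below its fed points, and Kif2b is listed at 0 throughout.

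The other 8 mitotic kinesins had a mean under 1 TPM and were not tested. Of these, Kif20b was lower without overlap, at 0.72 to 0.75 TPM in fasted libraries and 0.79 to 0.85 TPM in fed libraries. Over protein-coding transcripts alone its groups overlapped, at 0.55 to 0.75 TPM in fasted libraries and 0.60 to 0.85 TPM in fed libraries. Among tested genes 5.07% were lower without overlap, and the share among genes under 1 TPM was not counted. Kif18a, Kif15, Kif2c, Kif4, Kif18b and Kif14 ranged from 0.037 to 1.03 TPM in fasted libraries and from 0.037 to 1.02 TPM in fed libraries, and overlapped. Kif2b was listed at 0 in all 6 libraries.

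Part of the lower mitotic values lay in transcripts that code for no protein. Of Kif22, the coding transcript Kif22-201 had 1.91, 1.79 and 2.13 TPM in fasted libraries and 1.99, 1.84 and 1.14 TPM in fed libraries. The 295-base retained-intron transcript Kif22-205 had 1.31, 1.22 and 0.39 TPM in fasted libraries and 0.36, 3.40 and 2.55 TPM in fed libraries, and so was high in fed libraries 2 and 3. Another coding transcript, Kif22-202, had 1.153, 0 and 0 TPM in fasted libraries and 1.38, 1.14 and 1.41 TPM in fed libraries, and these 3 transcripts were chosen after their values were seen. Over protein-coding transcripts alone, the log2 fold change was -0.27 for Kif22 (limma adjusted p = 0.49) and -0.17 for Kif23 (limma adjusted p = 0.60), and the groups of both overlapped.

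Summed over all 12 genes, mitotic kinesins reached 10.7, 9.02 and 9.96 TPM in fasted libraries and 11.02, 14.4 and 11.9 TPM in fed libraries, without overlap. Over protein-coding transcripts alone the sums were 9.19, 7.27 and 8.61 TPM in fasted libraries and 9.56, 10.1 and 8.88 TPM in fed libraries, and they overlapped. The sum of 10 markers of dividing cells was 8.58, 8.60 and 13.8 TPM in fasted libraries and 9.01, 11.9 and 9.75 TPM in fed libraries, which overlapped. Of these, Mki67 had 0.38 to 1.36 TPM in fasted libraries and 0.46 to 0.76 TPM in fed libraries, and Top2a had 0.39 to 1.501 TPM in fasted libraries and 0.85 to 1.18 TPM in fed libraries. Transport kinesins exceeded mitotic kinesins by a factor of 224.5, 266.9 and 256.5 in fasted libraries and 211.8, 158.7 and 204.1 in fed libraries. These factors used all transcripts and were not computed over protein-coding transcripts alone. They also depend on the class lists, where Kif2a, at a mean of 78.9 TPM, was counted in neither class.

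**Figure D4:**
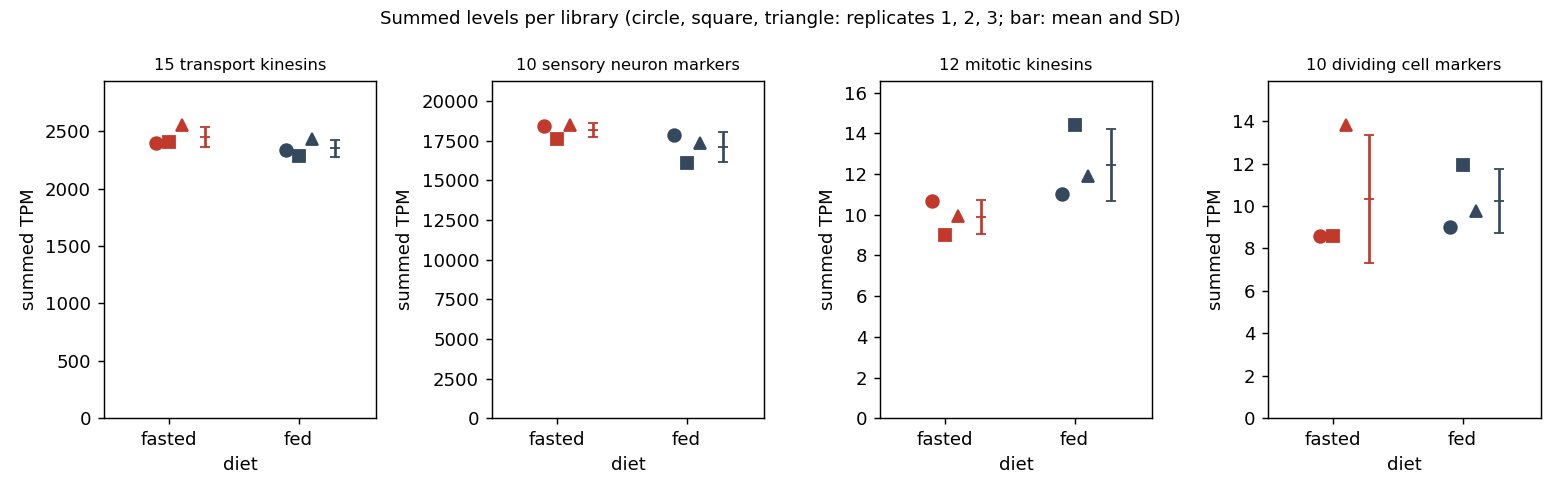
Summed TPM of transport and mitotic kinesins and of sensory neuron and dividing cell markers, 1 point per library for 3 fasted and 3 fed libraries, with bars for the mean and SD. Transport sums run from 2397 to 2554 TPM in fasted libraries and from 2287 to 2433 TPM in fed libraries, and mitotic sums from 9.02 to 10.7 TPM in fasted libraries and from 11.02 to 14.4 TPM in fed libraries.

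Libraries carried the markers of sensory neurons named by the label, and 10 of 10 neuron markers had a log2 fold change above 0 (62.5% of all tested genes did; median 0.070), with sums of 17630 to 18487 TPM in fasted libraries and 16071 to 17860 TPM in fed libraries. Macrophage markers were lower without overlap in 6 of 6 genes (5.07% of all tested genes were), with sums of 33.3 to 43.6 TPM in fasted libraries and 52.4 to 62.2 TPM in fed libraries. Endothelial markers were lower without overlap in 3 of 5 genes, against the same 5.07%. Their sums overlapped at 59.6 to 71.1 TPM in fasted libraries and 70.3 to 84.0 TPM in fed libraries. Red cell markers were higher without overlap in 4 of 4 genes (12.7% of all tested genes were), and Hba-a2, a haemoglobin chain, had 663.9 to 1280 TPM in fasted libraries and 456.6 to 590.5 TPM in fed libraries. Mitochondrially encoded genes took 5.08 ± 0.22% of TPM in fasted libraries and 7.20 ± 1.66% in fed libraries (SD, n = 3 each), without overlap. Muscle marker sums overlapped at 46.4 to 199.2 TPM in fasted libraries and 176.4 to 2433 TPM in fed libraries. Schwann cell sums overlapped at 7757 to 8588 TPM in fasted libraries and 7441 to 8314 TPM in fed libraries. Satellite glia sums (854.7 to 956.4 TPM in fasted libraries, 913.0 to 995.2 TPM in fed libraries) and fibroblast sums (642.5 to 700.1 TPM in fasted libraries, 621.6 to 693.7 TPM in fed libraries) overlapped as well. The part of these cells in the mitotic kinesin values was not tested.

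Kinesins outside both classes did not pass either. Kif2a, which takes microtubule ends apart and trims axon branches, had 80.1 to 82.6 TPM in fasted libraries and 74.0 to 78.9 TPM in fed libraries, without overlap, and a log2 fold change of 0.075 (SE 0.039, limma adjusted p = 0.53). Kif19a, which shortens ciliary microtubules, averaged 21.9 ± 1.76 TPM in fasted libraries and 21.5 ± 0.70 TPM in fed libraries (SD, n = 3 each). Kif26b, an atypical kinesin of developing tissue, averaged 12.3 ± 0.19 TPM in fasted libraries and 11.7 ± 0.79 TPM in fed libraries. Its relative Kif26a averaged 1.78 ± 0.20 TPM in fasted libraries and 1.91 ± 0.09 TPM in fed libraries.

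Kif24, a kinesin that restrains cilium formation, averaged 3.73 ± 0.69 TPM in fasted libraries and 3.09 ± 0.25 TPM in fed libraries, with a log2 fold change of 0.20 (SE 0.13, limma adjusted p = 0.56) that was 0.088 without fasted library 1. Its protein-coding transcripts alone averaged 0.40 ± 0.083 TPM in fasted libraries and 0.42 ± 0.086 TPM in fed libraries (SD, n = 3 each), so most of its TPM and the positive difference lay in a transcript annotated without a coding sequence. Kif9, a motor of motile cilia, averaged 2.75 ± 0.16 TPM in fasted libraries and 3.13 ± 0.54 TPM in fed libraries. Kif7, a regulator of hedgehog signalling, averaged 1.23 ± 0.16 TPM in fasted libraries and 1.24 ± 0.17 TPM in fed libraries. The groups of all 3 overlapped. Kif6, Kif27, Kif28 and Kif12 had means under 1 TPM and were not tested, with values of 0 to 1.12 TPM in fasted libraries and 0 to 0.69 TPM in fed libraries. Of these, Kif27 was higher without overlap, at 0.38 to 0.49 TPM in fasted libraries and 0.32 to 0.37 TPM in fed libraries. Over protein-coding transcripts alone its groups overlapped, at 0.20 to 0.43 TPM in fasted libraries and 0.16 to 0.37 TPM in fed libraries. Among tested genes 12.7% were higher without overlap, and the share among genes under 1 TPM was not counted.

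At the level of single transcripts, 60 kinesin transcripts of 24 genes had a mean of at least 1 TPM, 173 did not, and 82 were listed at 0 in all libraries. Of the 60, 38 had a log2 fold change above 0 (57.5% of all tested transcripts did). None of the 60 passed in limma (smallest adjusted p = 0.25, over 33197 transcripts), where 0.0271% of all tested transcripts passed. At an unadjusted p of 0.05, 2 were higher in fasted ganglia, where 4.49% of all were, and 1 was lower, where 2.71% were. Of the 2 higher ones, Kif3c-203 was tested only through its fasted values, as described below. The groups did not overlap for 7 that were higher (9.38% of all) and 1 that was lower (4.98% of all).

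Each highly expressed transport kinesin but Kif21a drew most of its TPM from 1 coding transcript. Kif5a-201 held 99.6% of Kif5a in both groups, at 460.0 ± 12.1 TPM in fasted libraries and 416.3 ± 35.6 TPM in fed libraries (SD, n = 3 each), and Kif5a-202 had 1.85 TPM in fasted libraries and 1.82 TPM in fed libraries. Kif5c-201 held 99.9% of Kif5c and Kif5b-201 held 99.3% of Kif5b in fasted libraries and 99.1% in fed libraries. Kif5c-202 and Kif5b-206, which code for no protein, averaged 0.10 and 0.97 TPM in fasted libraries. Kif1a-204 held 75.9% of Kif1a in fasted libraries and 76.4% in fed libraries, with Kif1a-210 at 62.2 ± 3.18 TPM in fasted libraries and 60.9 ± 1.95 TPM in fed libraries. Kif21a was split between Kif21a-205 (30.7% in fasted libraries, 30.9% in fed libraries) and Kif21a-201 (29.5% in fasted libraries, 30.1% in fed libraries).

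For Kif1b, the long form of 1816 amino acids (Kif1b-203, the vesicle motor KIF1B-beta) held 78.2 ± 1.43% of the TPM of the gene in fasted libraries and 79.8 ± 1.151% in fed libraries (SD, n = 3 each). The short form of 1150 amino acids (Kif1b-201, the mitochondrial motor KIF1B-alpha, chosen after its values were seen) held 1.67% in fasted libraries and 1.505% in fed libraries. The retained-intron transcript Kif1b-210 of 3475 bases had 67.5, 63.5 and 63.5 TPM in fasted libraries, against 53.9, 58.0 and 57.8 TPM in fed libraries. Its groups did not overlap, with a log2 fold change of 0.19 (SE 0.048) and limma p-values of 0.0062 unadjusted and 0.61 adjusted.

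Kif3c-203, a transcript of 746 bases annotated without a coding sequence at chr12:3400085-3403139 on the plus strand, within the Kif3c gene, had 2.57, 1.70 and 2.61 TPM in fasted libraries and was listed at 0 in all 3 fed libraries. It had the smallest p of the kinesin transcripts (limma unadjusted p = 0.000175, adjusted p = 0.25), and no fold is given against a listed 0. Kif3c-203 reached the mean of 1 TPM needed for testing only through its fasted values. Its p therefore gives no support for a difference. Kif3c-201, the main coding transcript (chosen after its values were seen), had 96.0 ± 3.46 TPM in fasted libraries and 89.2 ± 3.42 TPM in fed libraries (SD, n = 3 each), which is most of the difference in the Kif3c sum. Kif21a-206, a coding fragment of 750 bases, had 19.5 TPM in each of the 3 fasted libraries and 25.1, 20.7 and 23.0 TPM in fed libraries, lower without overlap (log2 fold change -0.22, limma adjusted p = 0.67).

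**Figure D5:**
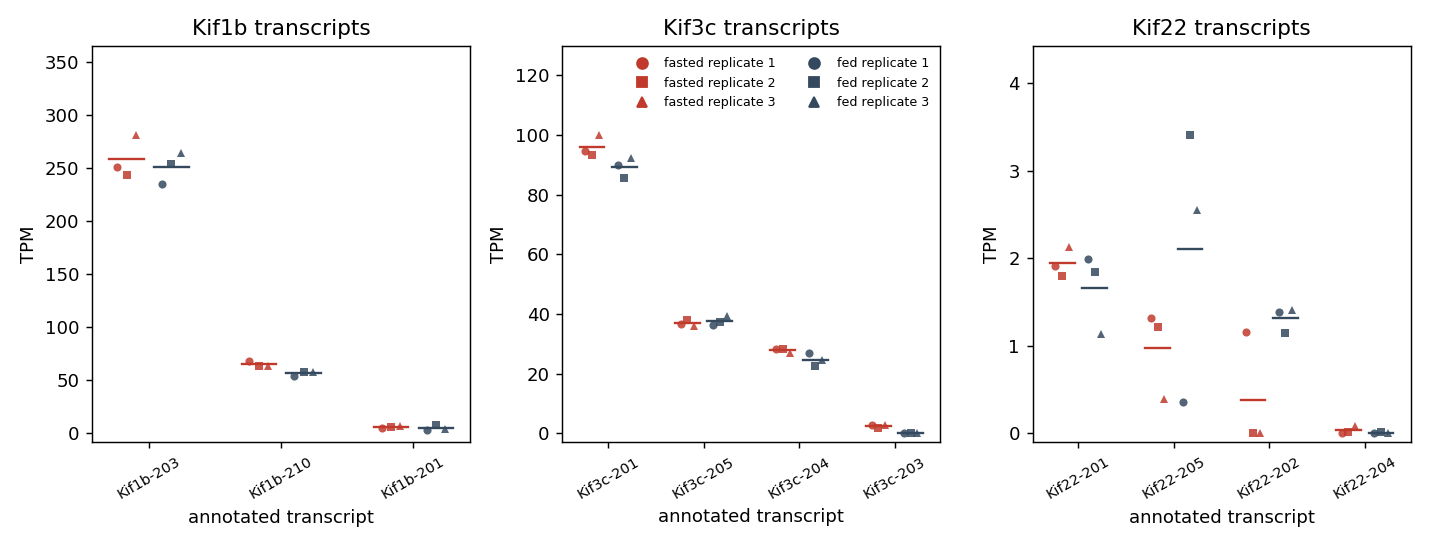
TPM of transcripts of Kif1b, Kif3c and Kif22, 1 point per library for 3 fasted and 3 fed libraries, with a line at each group mean. Kif1b-210 lies at 63.5 to 67.5 TPM in fasted libraries and 53.9 to 58.0 TPM in fed libraries, Kif3c-203 lies at 0 in the fed libraries, and Kif22-205 is high in fed libraries 2 and 3.

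Partners of the motors were also compared, from lists of adaptors and of the motors that run the other way. Of 25 cargo adaptors and light chains, 24 were tested, 20 had a log2 fold change above 0 and 4 below, where 62.5% of all tested genes were above 0. Their median was 0.043, against 0.031 over all tested genes. At an unadjusted p of 0.05, 3 were higher, where 6.72% of all tested genes were, and 0 passed the adjusted threshold. Klc1, the main kinesin-1 light chain of neurons, had 1599, 1602 and 1650.3 TPM in fasted libraries and 1594, 1412 and 1543 TPM in fed libraries, and its groups did not overlap (log2 fold change 0.095, limma adjusted p = 0.54). Light chains exceeded heavy chains 2.001 ± 0.03 times in fasted libraries and 1.99 ± 0.09 times in fed libraries (SD, n = 3 each). Map7d2, a microtubule protein that recruits kinesin-1, averaged 566.8 ± 39.0 TPM in fasted libraries and 549.8 ± 25.0 TPM in fed libraries.

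The 3 adaptors with the smallest p were Klc4, Madd and Kifap3, the last named after its values were seen. Klc4, a light chain, averaged 29.4 ± 0.71 TPM in fasted libraries and 26.5 ± 1.67 TPM in fed libraries (log2 fold change 0.15, limma adjusted p = 0.49). Madd, which links Kif1a and Kif1b to Rab3 vesicles, averaged 67.6 ± 1.73 TPM in fasted libraries and 63.0 ± 1.54 TPM in fed libraries (log2 fold change 0.10, limma adjusted p = 0.50). Kifap3, the non-motor subunit that joins Kif3a to its partner, averaged 215.6 ± 8.82 TPM in fasted libraries and 194.9 ± 14.2 TPM in fed libraries (log2 fold change 0.15, limma adjusted p = 0.50).

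Dynein and dynactin, which carry cargo back to the cell body, had 28 listed members and 27 tested, 21 with a log2 fold change above 0 and 6 below, where 62.5% of all tested genes were above 0. Their median was 0.064, against 0.031 over all tested genes, and 0 passed. Dynll2, a dynein light chain, averaged 1020.7 ± 10.9 TPM in fasted libraries and 957.4 ± 44.8 TPM in fed libraries, and Dynll1, its close relative, averaged 590.3 ± 10.3 TPM in fasted libraries and 588.2 ± 5.10 TPM in fed libraries (SD, n = 3 each). Bicd2, an adaptor that links dynein to its cargo, had 27.2, 26.5 and 28.3 TPM in fasted libraries, against 31.0, 30.5 and 30.5 TPM in fed libraries. It was the 1 member of the list lower at an unadjusted p under 0.05 (log2 fold change -0.16, SE 0.044, limma unadjusted p = 0.0074, adjusted p = 0.42), and its groups did not overlap. Of all tested genes, 3.22% were lower at that level.

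Of 5 C-terminal and related kinesins, which mostly walk the other way along the microtubule, 4 were tested and 0 passed (median log2 fold change -0.012). Kifc2 averaged 31.1 ± 1.80 TPM in fasted libraries and 31.9 ± 1.296 TPM in fed libraries, Kifc3 averaged 17.5 ± 0.46 TPM in fasted libraries and 17.4 ± 1.31 TPM in fed libraries, and Kifc5b averaged 0.96 ± 0.22 TPM in fasted libraries and 1.07 ± 0.13 TPM in fed libraries (SD, n = 3 each). The groups of all 3 overlapped.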

How the data were processed

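TPM per transcript was deposited by the authors for 3 fasted and 3 fed libraries. Salmon 1.6.0, DESeq2 1.34.0, Trim Galore 0.6.6 and FastQC 0.11.9 are listed with the builds GRCm38 and mm10, per the submitters' processing notes. Which annotation release served is not given in the sources. Each library sums to 1000000, so values are relative shares and the sequencing depth is unknown. No counting interval can be given, and transcripts that share sequence are split by the authors' estimate. Ganglia were dissociated with 1 mg/ml Dispase II and 2.5 mg/ml Collagenase Type II, per the labels' protocols.

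TPM was summed per gene symbol. Genes (15097) and transcripts (33197) with a mean of at least 1 TPM were compared as log2(TPM + 1), a pseudocount of 1, in limma 3.58.1 with R 4.3.3 (diet group as sole term, trended empirical Bayes, two-sided, Benjamini-Hochberg adjustment, threshold 0.05). The procedure was tested on simulated data. Figures were drawn with matplotlib 3.10.9. Coordinates came from GENCODE M21 (GRCm38), where 231 of 233 kinesin transcripts were found, and promoters from RefSeq; Kif25 was not analysed here. Intervals are 95%.

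The kinesins, the classes and the partner and marker lists were chosen with earlier results of these data known. Values per library are given for transport kinesins with a mean of at least 10 TPM, Kif17 and the 3 highest mitotic kinesins; other tested members get group means, and the 3 smallest p are named. For transcripts these are the most abundant pair of each of the 6 highest transport kinesins and the 3 smallest p, and for each partner list the most abundant pair and the pair with the smallest p. Alternatives were dropping the filter or raising it to 5 TPM, pseudocounts of 0.1 and 0.5, median-of-ratios and quantile scaling, removal of mitochondrially encoded genes, a replicate block and leaving out each library. Scaling to 10 neuron markers and protein-coding transcripts alone were chosen after seeing the data.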

Additional observations from a re-analysis of the deposited data

How the results depend on the processing

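The count of kinesin genes past the adjusted threshold was 0 in all alternatives, including the replicate block. The count of kinesin transcripts was 0 in those it was run in: a pseudocount of 0.1, median-of-ratios scaling, a filter at 5 TPM, the replicate block and leaving out each library. Among all genes, 1 passed; 2 passed with pseudocounts of 0.1 and 0.5, 0 with no filter and 0 with protein-coding transcripts alone, and 1 to 6 when 1 library was left out (6 without fed replicate 3). Same-numbered libraries had deviations correlated at 0.093, 0.11 and 0.066, and each library correlated best with its own number. Deviations within a group of 3 are tied to each other, so these small values cannot establish a pairing. No label gives one. With the replicate block, Kif3c and Kif5a had limma p-values of 0.026 and 0.034 unadjusted and 0.43 adjusted, and Kif22 and Kif23 had 0.079 unadjusted and 0.47 adjusted. The adjusted counts were 0 kinesins and 1 gene.

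The transport median of 0.048 ranged from 0.024 to 0.087 when 1 library was left out, and was -0.027 after scaling to neuron markers, where the median of all genes was -0.051. The mitotic median of -0.20 was -0.33 with a pseudocount of 0.1 and -0.043 with no filter; at a mean of at least 5 TPM no mitotic kinesin is left. The cause was not tested.

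No named kinesin passed under any setting. With values scaled to neuron markers, the log2 fold change was 0.058 for Kif5a, 0.025 for Kif3b and 0.018 for Kif3c. In the same setting it was -0.56 for Kif22 and -0.34 for Kif23. Scaling to neuron markers reversed the log2 fold change of Kif5b (-0.025), Kif3a (-0.021), Kif17 (-0.027), Kif1a (-0.051), Kif1b (-0.018), Kif13a (-0.058), Kif16b (-0.036), Kif21a (-0.075), Kif11 (-0.023), Kif19a (-0.063), Kif2a (-0.012) and Kif26b (-0.014). Median-of-ratios scaling reversed the log2 fold change of Kif13a (-0.0030), Kif21a (-0.018) and Kif19a (-0.0081). Quantile scaling reversed the log2 fold change of Kif13a (-0.0011), Kif21a (-0.0071), Kif7 (0.027) and Kif19a (-0.0068). Removal of mitochondrially encoded genes reversed the log2 fold change of Kif13a (-0.0042), Kif21a (-0.019) and Kif19a (-0.0093). Use of protein-coding transcripts alone reversed the log2 fold change of Kif13b (0.0066). Leaving out 1 library gave ranges on both sides of 0 for Kif5c (-0.043 to 0.014), Kif17 (-0.061 to 0.15), Kif13a (-0.027 to 0.074), Kif13b (-0.057 to 0.042), Kif21a (-0.029 to 0.040), Kif11 (-0.024 to 0.093), Kif7 (-0.052 to 0.058) and Kif19a (-0.027 to 0.083). The cause of these was not tested.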

Other observations

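3 loci whose names carry a kinesin symbol lay outside the rule for members: the antisense gene Kif16bos and the pseudogenes Kif22-ps and Kif4-ps. Each was listed at 0 TPM in all 6 libraries.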
